A study of Rattus rattus with 23 samples.

Results

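Plasminogen activation and the matrix proteases that act beside it were followed here through 9 genes, namely Plat, Plau, Plaur, Serpinb2, Mmp3, Mmp10, Mmp9, Mmp7 and Timp1, in rat nasal respiratory epithelium after inhaled hydrogen sulfide. The genes were chosen by name, with earlier results of these data known. Every probe set that the platform annotation gives to one of these symbols was taken, which makes 12 of the 31099 probe sets on the array. The study exposed adult male Sprague-Dawley rats, nose-only, to 200 ppm H2S or to air for 3 h a day, and cut the epithelium at the site of injury and regeneration out of the nose by laser capture. RNA of each animal was amplified and hybridised to its own Affymetrix Rat230_2 array, and 23 arrays were analysed. The values are array signals, a linear brightness with no fixed unit, and changes are differences of mean log2(signal + 16).

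The exposed animals were taken at 3 h (4 rats), 6 h (3 rats) and 24 h (4 rats) with 1 day of H2S, or at 144 h with 5 daily exposures (4 rats). Air animals were taken at 24 h with 1 day of air (4 rats) and at 144 h with 5 days (4 rats). The sample titles give these times without saying whether they count from the start or the end of an exposure. No air animals at 3 h or 6 h were analysed here, so both times were set against air at 24 h, and there exposure and time after it cannot be told apart. The 3 h, 6 h and 24 h comparisons share these 4 air rats. The rats are described as naive before exposure, and the labels name no transgene or other treatment. The series text gives an age of 10 weeks and the sample labels 60 days. The titles placed every animal in its group, but the treatment text of animal 6 (H2S, 3 h), animal 14 (H2S, 24 h) and animal 18 (air, 24 h) states 5 daily repeats.

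Plasminogen is a circulating zymogen that is cut to plasmin, a protease of fibrin and of matrix proteins, by tissue-type and urokinase-type plasminogen activators. Serpins hold both activators in check, and a surface receptor holds urokinase at the cell edge. Plasmin can in turn activate matrix metalloproteinase zymogens, which tissue inhibitors of metalloproteinases block. In injured epithelium both systems are known for loosening contacts with the matrix and clearing fibrin while cells migrate over a wound.

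The arrays of animal 18 (air, 24 h) and animal 22 (air, 144 h) stood apart. Their median Pearson correlations with the other arrays were 0.408 and 0.685, against 0.82 or more for each of the other 21 arrays. Array medians lay between 136.1 and 340.9 signal units. The RNA integrity number, a scale on which 10 is intact RNA, was given for 19 animals and ran between 1.7 and 10. At 144 h it was 4.8, 5.1, 4.5 and 1.7 in H2S animals, against 5.6, 6.4, 5.1 and 6.9 in air animals. All 9 epithelial markers (such as Epcam and the keratins) passed the filter on low values. So did all 8 stromal markers (such as Col1a1 and Dcn), so the captured tissue held RNA of stromal markers as well. Which cells gave the RNA of the 9 genes was not tested. These are tissue samples, in which fewer cells of a type and less RNA per cell cannot be told apart. Each array is a separate rat, so p-values measure the spread between rats, the capture and the amplification included.

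Of the 12 probe sets, 8 passed the filter, which kept the 19822 probe sets brighter than the array-wide median in 3 or more arrays. They stand for 7 of the 9 genes. Mmp10 and Mmp7 had no probe set past it, and neither did second probe sets of Plau and Plaur. These 4 are described by their signals alone. Serpinb2 exceeded the array median on 7 of 15 H2S arrays and on 0 of 8 air arrays, so it entered the tests only through exposed animals, and its tests and the counts that hold it are given as description.

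Mmp3 rose at 3 h, by 11.8-fold on the log2(signal + 16) scale, and it was the only member that passed the test in any comparison. Plat, Timp1 and Serpinb2 had positive changes at 3 h that did not pass. The changes of Plau, Plaur and Mmp9 did not pass in either direction, and their exposed groups overlapped air. In this 3 h comparison 0.0807% of all tested probe sets passed in either direction, and 1 of the 8 member probe sets did. The 8 had a median change of 1.22, beside 0.09 over all tested probe sets, and 5 of the 8 were positive, beside 55.4% of all. Without Serpinb2 the median of the other 7 was 0.98 and 4 of 7 were positive. Because the members were chosen with earlier results of these data known, these shares are description only.

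Mmp3 encodes stromelysin 1, a metalloproteinase that cuts proteoglycans, laminin and fibronectin and activates other metalloproteinase zymogens. Its probe set gave signals of 6369, 2677, 3095 and 3197 in H2S animals at 3 h, against 727.3, 478.7, 175.5 and 111 in air at 24 h. The 3 h and air groups did not overlap, and each of the 4 exposed animals also exceeded all 8 air animals, of which the highest was 727.3. The change was 3.56 (SE 0.673, limma adjusted p = 0.0401), the 13th smallest p among all tested probe sets. The call was near the threshold. Without animals 18 and 22 the change was 3.13 with an adjusted p of 0.108, and the groups still did not overlap. With each compared animal left out in turn it stayed between 3.13 and 3.98, and passed only without air animal 15 (adjusted p = 0.0241). With RNA integrity added to the model, over the 19 arrays that have a number, the change was 3.47 and its adjusted p was 0.568. Over the same 19 arrays without RNA integrity in the model the change was 4.18, and it did not pass there either. At 3 h both fits hold animals 3 and 4 alone. The known numbers were 7.2 and 5.3 at 3 h, against 4.2, 5.1 and 2.6 in air at 24 h. Their part in the result was not tested beyond the model that held them.

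After 3 h the Mmp3 signals were lower and more spread. At 6 h they were 1862, 1207 and 358.8, and at 24 h they were 595.2, 785.9, 298.3 and 1158. The 6 h animals did not overlap the 3 h animals and lay below them, with a difference of -1.93 at 6 h over 3 h (SE 0.727, unadjusted p = 0.0146, limma adjusted p = 1). Against air at 24 h the change was 1.63 at 6 h (limma adjusted p = 0.781) and 1.08 at 24 h (limma adjusted p = 0.632), with overlapping groups both times. After 5 daily exposures the signals were 1449, 375.5, 1181 and 115.3 in H2S animals, against 328.7, 481.6, 536.5 and 394.9 in air animals. The H2S animals lay on both sides of the narrow air range, and the change was 0.30 (limma adjusted p = 0.941).

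**Figure D1:**
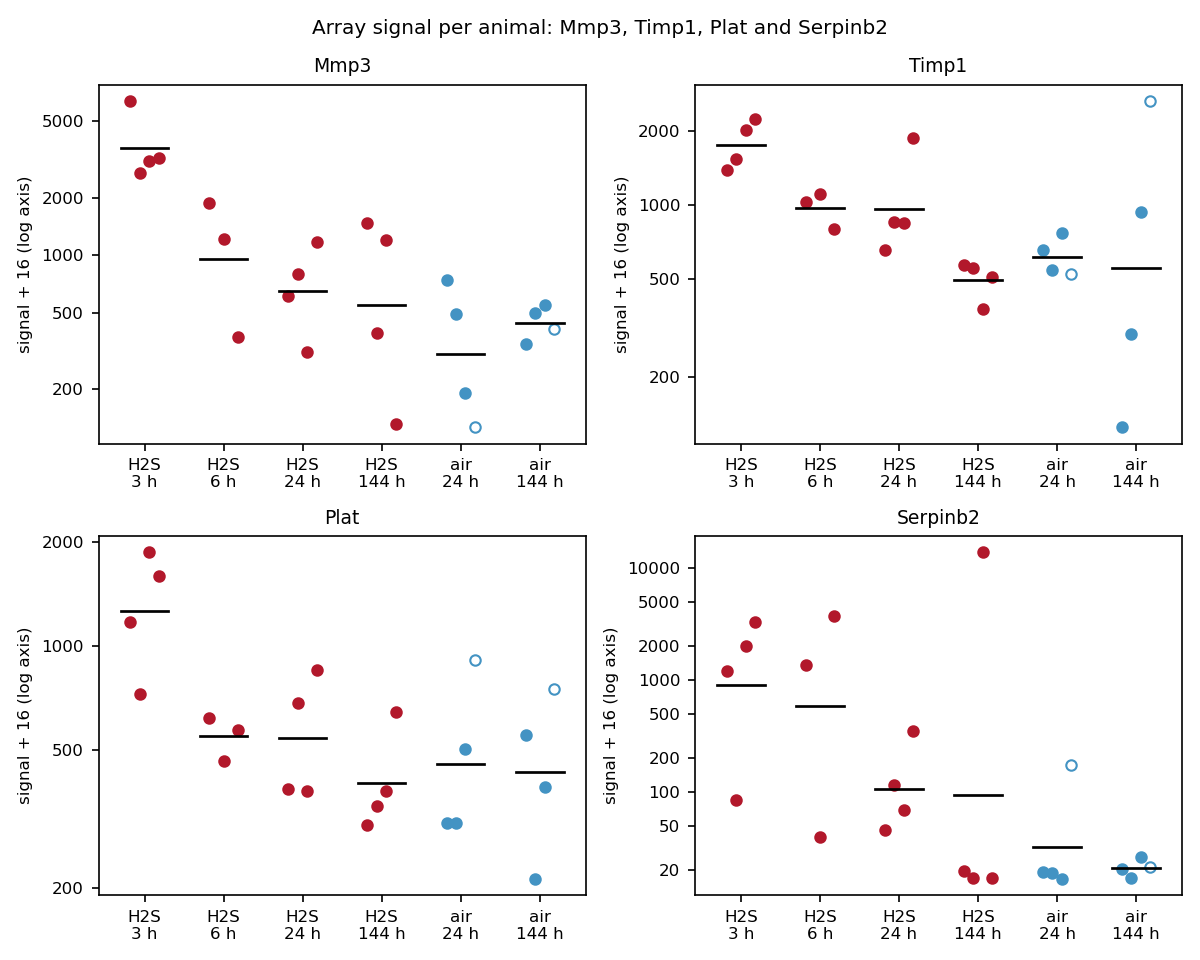
Signal + 16 on a log axis for each rat in the 4 H2S groups (red) and the 2 air groups (blue), for Mmp3, Timp1, Plat and Serpinb2; bars are means of log2 values and open circles are animals 18 and 22. Mmp3 lies at 2677 to 6369 signal units at 3 h, above all 8 air animals, and a single H2S animal at 144 h has a Serpinb2 signal of 13830.

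Timp1, a secreted inhibitor that binds active metalloproteinases, Mmp3 and Mmp9 among them, gave signals of 1376, 1521, 1988 and 2212 at 3 h, against 641, 528, 750.2 and 509.4 in air at 24 h. At 6 h its signals were 1013, 1093 and 786.2. Neither group overlapped air at 24 h, and both lay above it. The changes were 1.51 at 3 h (SE 0.586, unadjusted p = 0.017, limma adjusted p = 0.433) and 0.66 at 6 h (limma adjusted p = 0.798), so neither passed. With Mmp3 it made 2 of the 8 member probe sets whose 3 h animals all lay above air, where 3.02% of all tested probe sets did so, and at 6 h it was 1 of 8, where 2.49% did. Single air animals reached higher, since animal 22 at 144 h gave 2627.

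At 24 h the Timp1 signals were 640.5, 833.6, 826.4 and 1845, which overlapped air (change 0.65, limma adjusted p = 0.718). At 144 h they were 555.1, 539.7, 364.3 and 495.1 in H2S animals, against 109.6, 284.6, 918.5 and 2627 in air animals. The exposed animals lay inside the wide air range, and the change of -0.15 (limma adjusted p = 0.971) was 0.60 without animals 18 and 22.

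Plat encodes tissue-type plasminogen activator, the activator that works best on plasminogen bound to fibrin. Its signals were 1153, 709.3, 1847 and 1577 at 3 h, against 291.8, 291.5, 488.2 and 895.1 in air at 24 h, the last being animal 18. Only that air animal overlapped the exposed range. The change was 1.46 (SE 0.437, unadjusted p = 0.00287, limma adjusted p = 0.317). Without animals 18 and 22 it was 1.80, the groups did not overlap, and the adjusted p was 0.0906. It passed only with arrays weighted by quality (1.71, adjusted p = 0.0386). With RNA integrity in the model, over 19 arrays, the 3 h change was 0.75 for Plat, 0.90 for Timp1 and 2.38 for Serpinb2. At 3 h that fit holds animals 3 and 4 alone. Animals 5 and 6 have no number, and they gave the highest 3 h signals of these genes. The values thus differ from the main ones in animals as well as in model.

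At 6 h the Plat signals were 601, 449.3 and 553.6, all below the 3 h animals. The difference of -1.20 at 6 h over 3 h had an unadjusted p of 0.0181 and a limma adjusted p of 1. At 24 h they were 369.9, 667.2, 363.9 and 836.2. These 2 groups lay within the air range, with changes against air at 24 h of 0.26 at 6 h (limma adjusted p = 0.885) and 0.24 at 24 h (limma adjusted p = 0.862). At 144 h the signals were 288.2, 328.3, 364.6 and 626 in H2S animals, against 534.9, 196.2, 375.4 and 734 in air animals, which overlapped throughout (change -0.11, limma adjusted p = 0.972).

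Plau encodes urokinase-type plasminogen activator, which acts at the cell surface. Its brighter probe set gave 350.9, 220.3, 2231 and 2448 at 3 h, against 789.4, 701.5, 659.9 and 64.41 in air at 24 h. The 3 h animals fell into a low and a high pair on either side of most air animals, and animal 18 lay far below the other air animals. The change was 0.98 (SE 0.866, limma adjusted p = 0.692), and without animals 6, 14 and 18 it was -0.33, so its direction is not settled by these data.

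Signals of Plau were 535.7, 120.7 and 1605 at 6 h and 516.6, 68.22, 834.9 and 296.9 at 24 h. Both groups lay on both sides of most air values, with changes of 0.24 and -0.35 (limma adjusted p = 0.951 and 0.906). At 144 h the signals were 246.2, 212.7, 337.7 and 394.7 in H2S animals, against 570.5, 991.8, 386.9 and 396.6 in air animals. The groups overlapped by 1 pair of values, and the change of -0.87 did not pass (SE 0.866, limma adjusted p = 0.831). The second Plau probe set lay between 4.033 and 130.5, below the median of its array on all 23 arrays, and did not follow the first (Pearson r = -0.04 over 23 arrays, as a description).

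Plaur encodes the membrane-anchored receptor that binds urokinase. Its brighter probe set exceeded the array median on 4 of 23 arrays. The signals were 22.57, 208.6, 32.63 and 49.49 at 3 h, against 37.52, 137.2, 102.7 and 1125 in air at 24 h, where the highest was again animal 18. At 6 h they were 86.25, 128.6 and 86.57, and at 24 h they were 198.7, 10.28, 22.18 and 14.24. All exposed groups overlapped air. The changes were -1.33, -0.67 and -1.85 at 3 h, 6 h and 24 h (limma adjusted p = 0.579, 0.835 and 0.612), and without animals 18 and 22 they were -0.45, 0.21 and -0.97.

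At 144 h the Plaur signals were 51.57, 107.2, 83.5 and 5.152 in H2S animals, against 140.6, 63.71, 352.6 and 146.9 in air animals. All 4 exposed animals lay below 3 of the 4 air animals, and the change was -1.36 (SE 0.809, limma adjusted p = 0.698). The second Plaur probe set gave 94.81, 5.188, 2.368 and 75.61 at 3 h, 3.371, 17.05 and 4.178 at 6 h, and 17.87, 2.958, 9.807 and 59.81 at 24 h, against 8.238, 4.479, 5.409 and 1188 in air at 24 h. At 144 h it lay between 1.71 and 10.75 in H2S animals and between 5.797 and 10.85 in air animals. Animal 18 was far above every other animal, and 5 of the 11 animals taken after 1 day of H2S were above the other 7 air animals.

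Serpinb2 encodes plasminogen activator inhibitor 2, a serpin of urokinase and tissue-type activator that is largely kept inside epithelial cells and macrophages. Signals were 1184, 68.62, 2012 and 3275 at 3 h and 1348, 23.56 and 3715 at 6 h, against 3.22, 3.066, 0.8737 and 157.4 in air at 24 h. The highest air value was animal 18, and the lowest exposed animal of either time lay below it. The changes were 4.82 at 3 h (SE 1.68, unadjusted p = 0.00883, limma adjusted p = 0.393) and 4.19 at 6 h (SE 1.81, limma adjusted p = 0.781). No air array put this probe set above its own median, so these changes set exposed animals against air values that lie below the array medians. The exposed animals were widely spread at both times, and the size of the 3 h change moved with the constant added before the logarithm, being 6.67 with 1 and 3.53 with 64.

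At 24 h the Serpinb2 signals were 30.14, 99.76, 52.57 and 332.6, a change of 1.72 (limma adjusted p = 0.736). Without animals 18 and 22 all 11 animals taken after 1 day of H2S lay above the highest of the 6 air animals, which was 10.37. The changes were then 5.63, 5.00 and 2.53 at 3 h, 6 h and 24 h (limma adjusted p = 0.334, 0.999 and 0.849). In that fit 0.0735% of all tested probe sets had all 11 exposed animals above all 6 air animals, a share from which nothing is read here because Serpinb2 passed the filter through exposed animals. At 144 h the signals were 3.898, 1.169, 13830 and 1.276 in H2S animals, against 4.585, 1.205, 10.37 and 5.653 in air animals. A single rat, animal 25, made the change of 2.17 (limma adjusted p = 0.773), which was -0.23 without it.

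Mmp9 encodes gelatinase B, which cuts denatured collagen and basement membrane collagen and is stored in neutrophil granules. It had 2 tested probe sets. The brighter gave 456.2, 2724, 1683 and 473.7 at 3 h and 668.8, 953.2 and 344.5 at 6 h, against 743.6, 1388, 2676 and 1289 in air at 24 h. At 24 h it gave 385.5, 552.5, 790.1 and 322.8, and 3 of these 4 animals lay below all air animals. The changes were -0.45, -1.16 and -1.48 at 3 h, 6 h and 24 h (limma adjusted p = 0.799, 0.781 and 0.612). The last had an unadjusted p of 0.0205.

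The second Mmp9 probe set was dimmer. Its signals at 24 h were 170, 111.6, 160.9 and 71.95 in H2S animals, against 153, 321.4, 510.5 and 878.7 in air animals, and only the lowest air animal lay among them. The change was -1.55 (unadjusted p = 0.0137, limma adjusted p = 0.606). The probe sets correlated at a Pearson r of 0.65 over 23 arrays, which share the groups and the scaling. At 144 h the brighter probe set gave 723.5, 542.8, 450.8 and 935.4 in H2S animals, against 1355, 319.5, 522.3 and 1992 in air animals. The dimmer one gave 217.7, 256.7, 173.3 and 191, against 48.73, 148.9, 66.24 and 527.4, so the H2S animals were the more even. The changes were -0.36 and 0.60 (limma adjusted p = 0.916 and 0.827) and differ in sign between the probe sets. Without animals 18 and 22 both changes were positive, 0.06 and 1.22 (limma adjusted p = 0.98 and 0.307). The dimmer one then had an unadjusted limma p of 0.0163. Its H2S animals all lay above the remaining air animals at 144 h, as 5.27% of all tested probe sets did.

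Mmp10 encodes stromelysin 2, a close relative of Mmp3 that is known from wound-edge epithelium. Its signals were 345.4, 73.27, 64.42 and 85.29 at 3 h, against 2.764, 141.1, 64.59 and 33.32 in air at 24 h, and 49.29, 89.59 and 5.558 at 6 h. At 24 h they were 3.949, 8.022, 11.95 and 2.84. At 144 h they were 52.58, 5.064, 3.232 and 10.91 in H2S animals, against 45.04, 4.818, 6.589 and 6.909 in air animals. One 3 h animal (animal 3, which also had the highest Mmp3 signal) stood above the rest, and the probe set exceeded the array median on 1 of 23 arrays. Mmp7, matrilysin, known for its part in airway epithelial repair and defensin processing, lay between 3.291 and 51.1 on every array, below the array median each time.

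**Figure D2:**
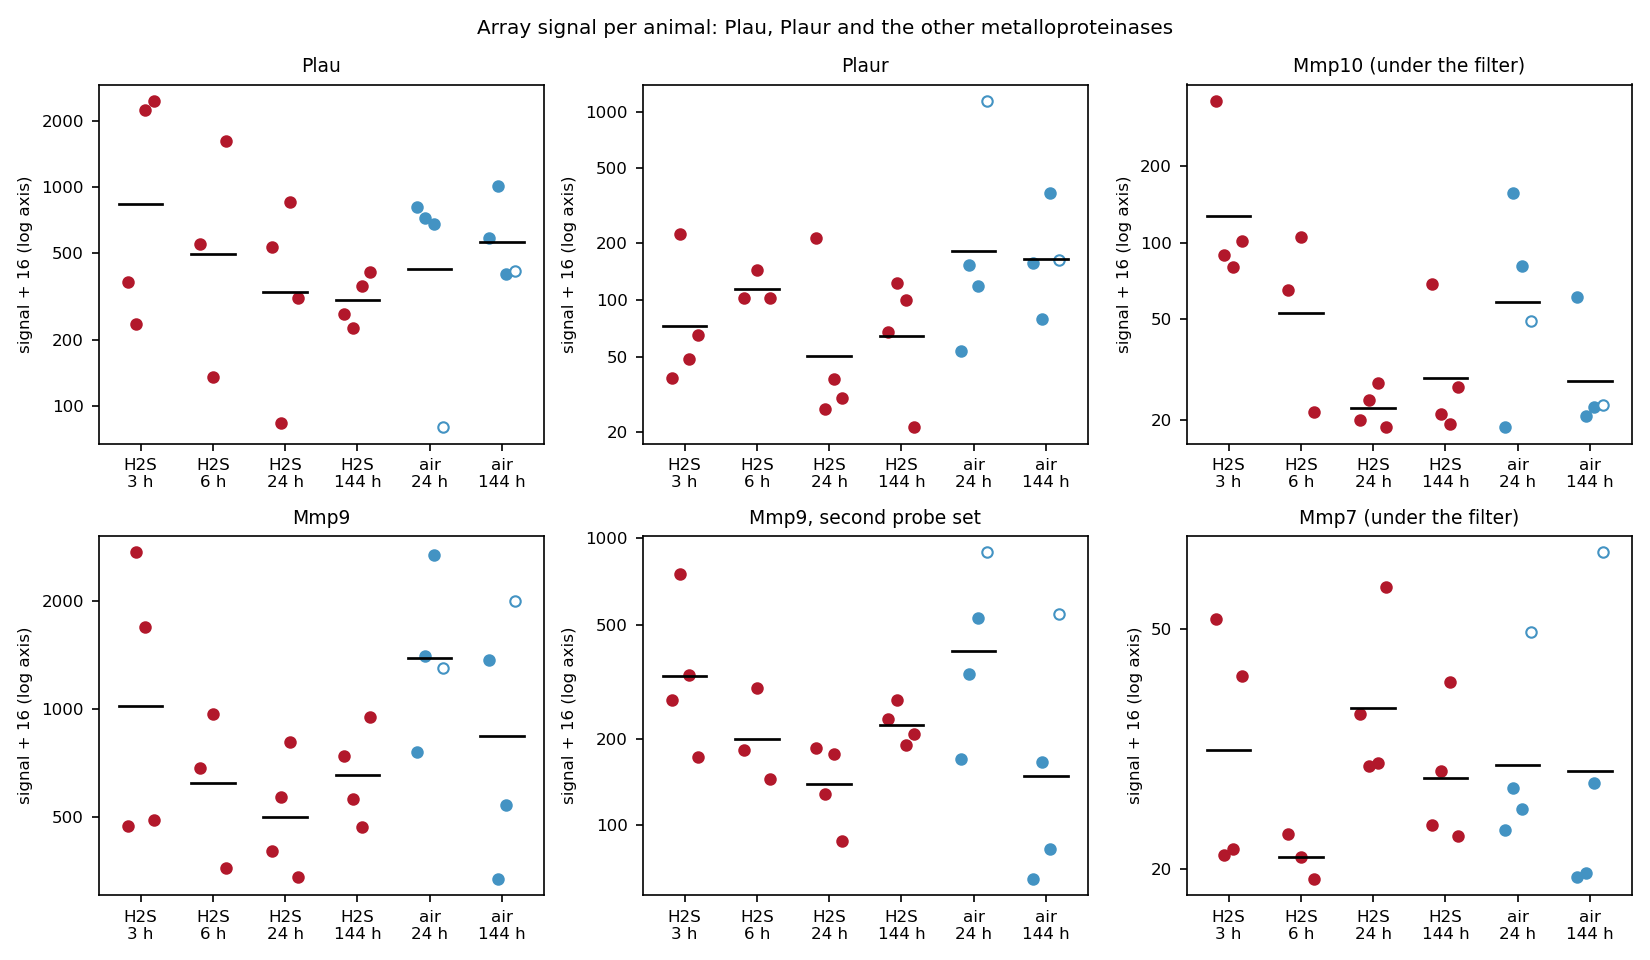
Signal + 16 on a log axis for each rat in the 4 H2S groups (red) and the 2 air groups (blue), for the Plau, Plaur, Mmp10, Mmp9 and Mmp7 probe sets; bars are means of log2 values and open circles are animals 18 and 22. The brighter Plau probe set splits the 3 h animals into 220.3 and 350.9 below and 2231 and 2448 above, and animal 18 is lowest for Plau and highest for Plaur.

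At 6 h no member passed, beside 0.00504% of all tested probe sets, and the median change of the 8 was 0.25 beside 0.08 over all. At 24 h none passed, beside 0.0101%, and the median was -0.05 beside 0.07. At 144 h none passed, beside 0%, and the median was -0.13 beside -0.02. Counts at an unadjusted p under 0.05 were 4, 2, 3 and 0 of 8 at 3 h, 6 h, 24 h and 144 h, where 9.8%, 5.81%, 8.09% and 7.8% of all tested probe sets were. Without Serpinb2 they were 3, 1, 3 and 0 of 7, and the medians were 0.24, -0.35 and -0.15 at 6 h, 24 h and 144 h.

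**Figure D3:**
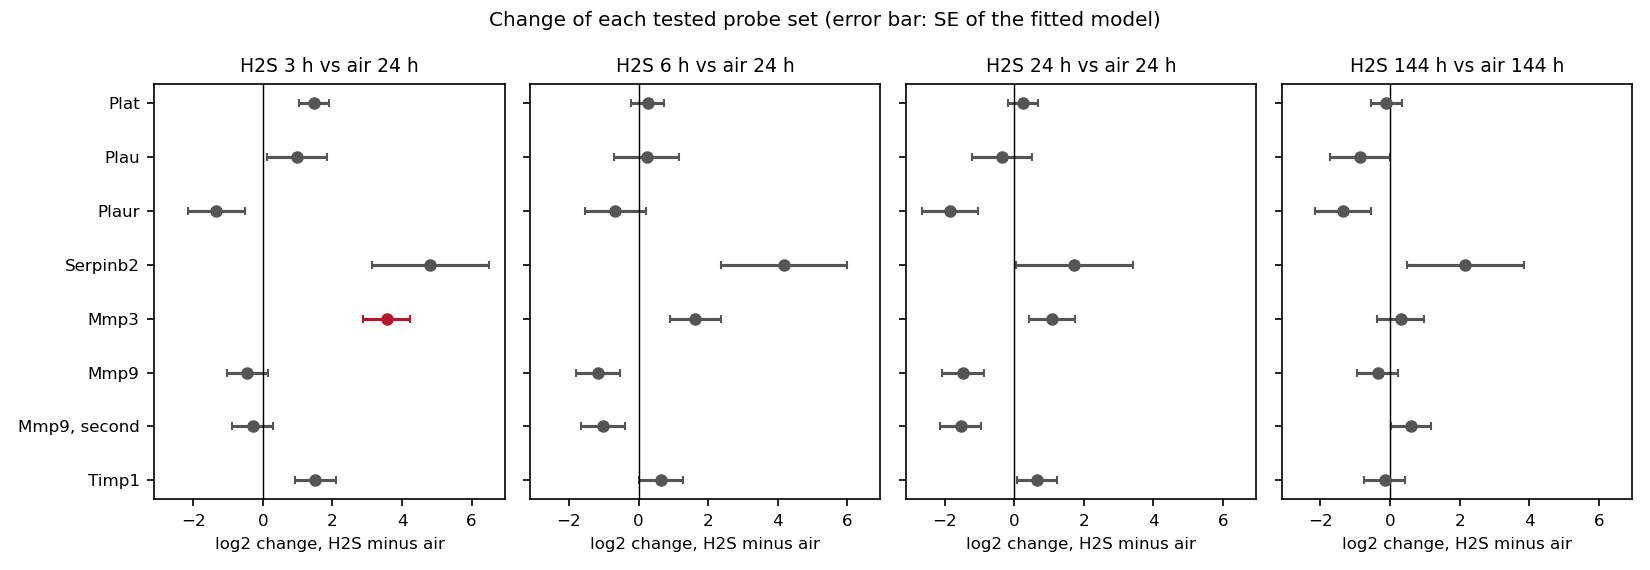
Log2 change of signal + 16 (point) with its standard error (line) for the 8 tested member probe sets, for H2S at 3 h, 6 h and 24 h over air at 24 h and H2S at 144 h over air at 144 h; red marks an adjusted p under 0.05. The sole red point is Mmp3 at 3 h, at 3.56 with an adjusted p of 0.0401.

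The steps between exposed times were compared next. From 3 h to 6 h the difference was negative for 7 of 8 member probe sets, with a median of -0.74, where 48.6% of all tested probe sets were positive, and 3 of the members (Mmp3, Plat and Timp1) had all 6 h animals below all 3 h animals, as 3.78% of all tested probe sets did. None passed, beside 0.00504% of all. From 6 h to 24 h all 8 differences were negative, with a median of -0.54, where 48.8% of all were positive, and Serpinb2 had the largest, -2.46 (SE 1.81, limma adjusted p = 1). None passed, beside 0.0101% of all. These animals are different rats at each time, and the 3 h to 6 h and 6 h to 24 h steps share the 6 h rats. Without Serpinb2 1 of 7 differences was positive from 3 h to 6 h, with a median of -0.746. From 6 h to 24 h 0 of 7 were, with a median of -0.525. The members were chosen with earlier results known, so these shares too are description only.

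Air animals at 144 h and at 24 h were compared to see how far the controls themselves moved. None of the 8 passed, beside 0% of all, and 1 had an unadjusted p under 0.05 (8.37% of all did), the dimmer Mmp9 probe set, with -1.45 at 144 h over 24 h (limma adjusted p = 0.574). Its groups overlapped through animal 22, and without animals 18 and 22 the difference was -1.70. The H2S effect at 144 h was also set against that at 24 h in 1 contrast. None of 8 passed, beside 0% of all, and 1 had an unadjusted p under 0.05, as 4.69% of all did, with the same Mmp9 probe set highest at 2.14 (SE 0.816, unadjusted p = 0.0154, limma adjusted p = 0.946).

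The markers of other cells were read beside these values. The epithelial list had a mean level of 3.47 ± 0.672 above its array's mean at 3 h (SD, n = 4), against 2.26 ± 0.286 in air at 24 h (SD, n = 4), and 9 of 9 epithelial markers had a positive change at 3 h, where 55.4% of all tested probe sets did. Ciliated-cell markers were positive in 6 of 6 measured, with a median change of 1.07 and summed signals of 8755 to 21100 at 3 h and 4309 to 8256 in air at 24 h. The 4 measured neutrophil markers of 10 listed summed to between 1316 and 4066 signal units at 3 h and to between 467.5 and 3356 in air at 24 h, and 3 of the 4 had a positive change, with a list median of 1.53. Of 8 measured macrophage and monocyte markers 7 were positive at 3 h, with summed signals of 14130 to 31620 at 3 h and 7272 to 20010 in air at 24 h, and a median change of 0.70. General leukocyte markers were positive in 4 of 4, with a median change of 1.14 and summed signals of 5073 to 21230 at 3 h and 1561 to 16420 in air at 24 h. The 8 stromal markers summed to 115300 to 250900 at 3 h and to 128600 to 302200 in air at 24 h, and 3 of 8 were positive. The 9 epithelial markers summed to 47560 to 154900 at 3 h and to 20070 to 45960 in air at 24 h. Endothelial markers were positive in 4 of 7 measured, with a median change of 0.36. Cartilage and bone markers were positive in 1 of 4 measured, with a median change of -0.44. Their median signals in air at 24 h were 22100 for Bglap and 24600 for Ibsp, of bone, and 333.9 for Acan and 33.24 for Col2a1, of cartilage. At 6 h, 24 h and 144 h 7, 9 and 8 of 9 epithelial markers were positive, with median changes of 0.667, 1.025 and 0.965. Ciliated-cell markers were positive in 0, 6 and 6 of 6, with medians of -0.506, 0.521 and 0.913. Of all tested probe sets 55%, 54.9% and 48.4% were positive at these times. No marker of any list passed the test. The neutrophil granule markers Mpo and Elane have no probe set by symbol here. Median signals at 3 h and in air at 24 h were 413.9 and 79.87 for S100a8, 1259 and 350.6 for S100a9, 1153 and 425.7 for Lcn2, and 14.35 and 105.1 for Camp. Their part in the change of Mmp3, Timp1, Plat and Serpinb2 was not tested.

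A list of 63 other genes of these systems was read the same way, and 48 of them could be tested. None passed in any of the 8 comparisons, while 13 of the 48 had an unadjusted p under 0.05 at 3 h, where 9.8% of all did. At 3 h 30 of 48 were positive, with a median change of 0.48. The plasminogen system split 7 positive of 14, with a median of 0.01, and the matrix proteases 12 of 23, with a median of 0.35. The inhibitor list (Timp2 to Timp4, Reck, A2m, the cystatins, Slpi and some serpins) had a positive change in 11 of 11 at 3 h. Of all tested probe sets 55.4% were positive. The list's median was 0.78, and 10 of 11 were positive without animals 18 and 22. At 6 h 11 of 11 were positive, where 55% of all were, with a median of 0.61, but 9 of 11 without animals 18 and 22 and 8 of 11 with quantile normalization. At 24 h 9 of 11 were positive (54.9% of all), and at 144 h 7 of 11 were (48.4% of all). Inhibitors also stood in the plasminogen system list, and not all of them were positive. Serpine2, Tfpi and Tfpi2 had 0.07, -0.30 and -0.20 at 3 h, and -0.34, -0.58 and 0.08 at 6 h.

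Anxa2, a cell-surface docking protein for plasminogen and tissue-type activator, had the smallest p in the list at 3 h. Its signals were 8044, 13630, 14410 and 24520 at 3 h, against 2573, 2396, 7675 and 2942 in air at 24 h, without overlap. The change was 2.03 (SE 0.497, limma adjusted p = 0.167). It was 1.74 at 6 h (limma adjusted p = 0.781) and 1.92 at 24 h (limma adjusted p = 0.363), each without overlap with air at 24 h. Of all tested probe sets 3.02%, 2.49% and 2.22% lay wholly above that air group at 3 h, 6 h and 24 h. Air animal 22 at 144 h gave an Anxa2 signal of 10130, above the lowest exposed animal of each of these times. Slpi, a secreted inhibitor of neutrophil elastase, had 2.46 at 3 h (limma adjusted p = 0.228), and F3, tissue factor, had 1.88 (limma adjusted p = 0.378).

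At 24 h Serpinb1a, a serpin that inhibits neutrophil proteases, had signals of 16930, 18860, 7769 and 19080, against 3909, 4388, 5712 and 2773 in air. The groups did not overlap, and the change of 1.86 did not pass (SE 0.417, limma adjusted p = 0.338). Air animal 22 at 144 h gave a Serpinb1a signal of 12180, above the lowest exposed animal, 7769. Adamts5, an aggrecan-cutting protease, had -1.52 at 24 h (limma adjusted p = 0.352). At 144 h F3 had 1.88 (limma adjusted p = 0.58), Serpinb1a 1.18 (limma adjusted p = 0.584) and Pros1, protein S, 0.76 (limma adjusted p = 0.584). The other leading genes by p were values without a call. At 6 h they were Slpi with 2.13 and Thbd, thrombomodulin, with -1.22 (limma adjusted p = 0.781 for both). Between the air groups, 144 h over 24 h, Serpina1 had 2.08, Klkb1, plasma prekallikrein, -3.66 and Pros1 -0.88 (limma adjusted p = 0.542 for all). In the difference of the H2S effects, 144 h minus 24 h, Serpina1 had -1.76, Adamts5 1.07 and Pros1 0.80 (limma adjusted p = 0.946 for all). At 6 h over 3 h Adam8, a membrane metalloproteinase, had -1.47 (limma adjusted p = 0.855), Adamts9 1.48 and Adamts4 -0.98 (limma adjusted p = 1 for both). At 24 h over 6 h Adamts5 had -1.08, Serpinb1a 1.15 and Mmp13, collagenase 3, -1.21 (limma adjusted p = 1 for all).

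**Figure D4:**
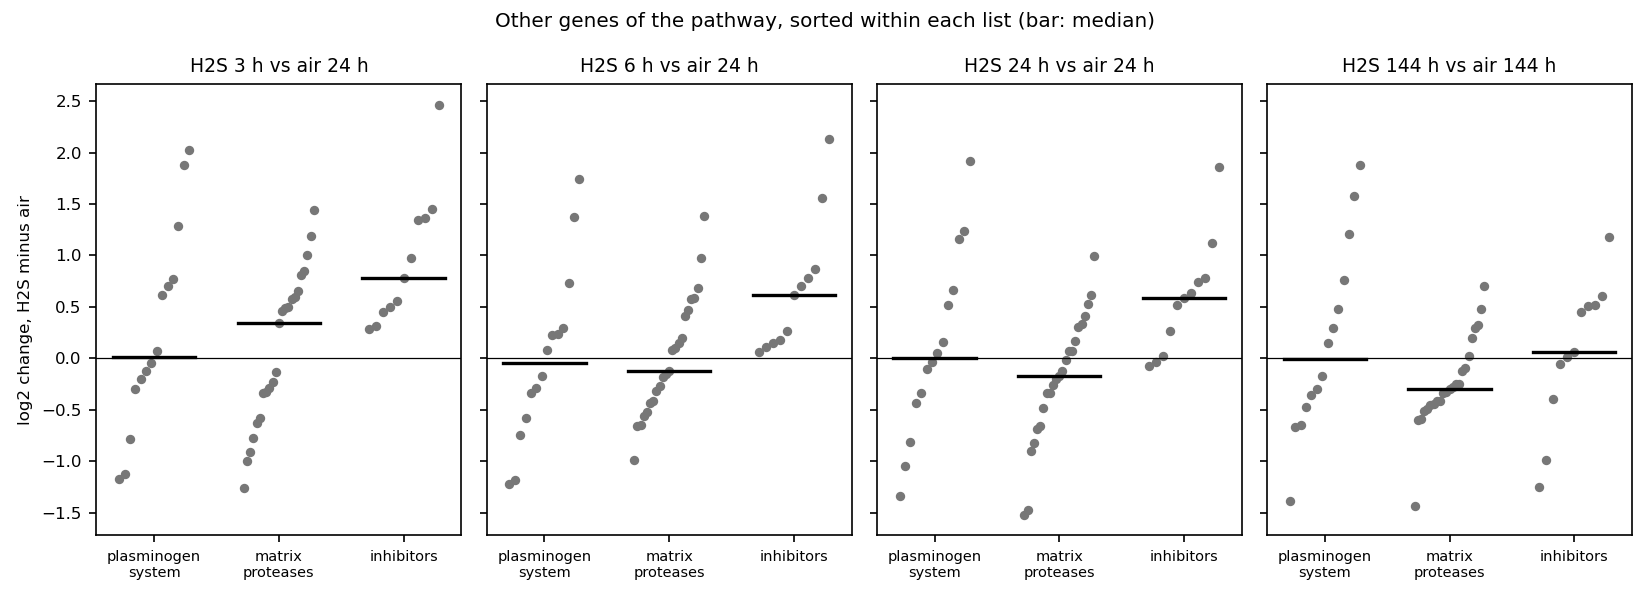
Log2 change of each tested gene of the 3 lists (plasminogen system, matrix proteases and inhibitors) in the 4 comparisons with air; each point is a gene and the bar is the list's median. None of the 48 genes passes the test. The 11 genes of the inhibitor list are all above 0 at 3 h and at 6 h (8 of 11 at 6 h with quantile normalization).

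Genes whose log2 values ran most like each member were named over 23 arrays and 11242 genes, as a description with no test. The arrays share the groups, the scaling and the amplification protocol. For Mmp3 they were Gda, guanine deaminase (Pearson r = 0.830, and 0.819 over the 21 arrays without animals 18 and 22), Klf6, a zinc-finger transcription factor (0.792 and 0.756), and Utp3 (0.757 and 0.732). For Serpinb2 they were Gprc5a (0.878 and 0.881), Mall (0.865 and 0.861) and the keratin Krt17 (0.810 and 0.849). For Plat they were the metallothionein Mt2A (0.83 and 0.83), the annexin Anxa3 (0.822 and 0.818) and the adenosine receptor Adora2b (0.787 and 0.812). For Timp1 they were Myd88, the adaptor of Toll-like receptors (0.794 and 0.861), Gadd45b (0.790 and 0.803) and Tbrg4 (0.777 and 0.782).

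For Mmp9 they were Ctsk, cathepsin K (0.803 and 0.809), the integrin Itgb3 (0.703 and 0.774) and Nrp2 (0.702 and 0.674). For Plau they were the connexin Gjc1 (0.729 and 0.678), Rassf8 (0.709 and 0.759) and Lrch1 (0.708 and 0.635). For Plaur they were Syde1 (0.869 and 0.811), the thyroid hormone receptor Thra (0.851 and 0.757) and Npff (0.816 and 0.747). Among the members themselves the highest r over 23 arrays was Plat with Timp1 (0.614), followed by Plat with Serpinb2 (0.558), Serpinb2 with Mmp3 (0.530) and Mmp3 with Timp1 (0.508). On deviations from the group means these were 0.322, 0.357, 0.149 and 0.105, so the pairs ran together less within groups than across them.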

How the data were processed

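Signals of 23 arrays were analysed. The deposited value table holds array intensity on a linear scale, made with GCOS 1.0 per the submitters' processing notes. No source used here gives the program's settings. Its arrays have trimmed means of 500.1 to 500.2 (2% cut at each end), from the values. The members, gene lists and tests were chosen with earlier results of these data known.

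Signals were taken to log2(signal + 16), and probe sets above the median of their array on at least 3 arrays were kept, leaving out 57 controls. limma 3.58.1 in R 4.3.3 fitted 1 mean per group over all 23 arrays, two-sided, in 8 comparisons, with Benjamini-Hochberg adjustment over 19822 probe sets and a threshold of 0.05. The fit was also run on simulated data, drawn as independent normal values with the spread of each probe set. Those data held no outlying arrays, so they say nothing about calls that move with single arrays. A gene was led by its kept probe set with the highest mean; genes were named as all members, the 3 list genes with the smallest p per comparison, and the 3 most alike genes per member. Platform annotation gave 20832 probe sets 1 symbol, 436 several and 9831 none.

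Array number limits precision; arrays give no counting error. Alternatives covered the added constant, normalization, filters, array weights, the RNA integrity number and left-out animals. Promoter and protein sequences were not used here.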

Additional observations from a re-analysis of the deposited data

Results flagged for a closer look

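Of 60 probe-set groups of 4 animals, 6 had a highest or lowest animal far from the others by Dixon's ratio. Chance gives about 1 in 20 such groups, and these groups share animals. Animal 18 (air, 24 h) gave a Plau signal of 64.41, where the other 3 gave 659.9 to 789.4. It gave 157.4 for Serpinb2, where the others gave 0.8737 to 3.22, and 1188 for the second Plaur probe set, where the others gave 4.479 to 8.238. Animal 25 (H2S, 144 h) gave 13830 for Serpinb2, where the others gave 1.169 to 3.898. For Mmp10, animal 3 (H2S, 3 h) gave 345.4, where the others gave 64.42 to 85.29, and animal 19 (air, 144 h) gave 45.04, where the others gave 4.818 to 6.909.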

How the results depend on the processing

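The count of members called at 3 h, 1 in the report, was 0 with log2(signal + 1), with no filter, with RNA integrity as a covariate, over the 19 arrays with such a number and no covariate, without animals 6, 14 and 18, without animals 18 and 22, and in a fit of only the groups compared; it was 2, with Plat beside Mmp3, under array weights, and 0 to 1 with each animal left out in turn. In the other 7 comparisons it was 0 under every setting run, and 0 to 0 with animals left out. The causes were not tested. Centring arrays on their median moved the median of all probe sets at 3 h to 0.267, against 0.087.

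Directions turned in these cases. Under array weights the change was 0.02 for Mmp9 and 0.09 for Plat and 0.53 for Timp1 at 144 h, and -0.22 for Plau and 0.05 for Plaur at 6 h. Without animals 18 and 22 it was 0.06 for Mmp9, 0.16 for Plat and 0.60 for Timp1 at 144 h, and -0.56 for Plau and 0.21 for Plaur at 6 h. Without animals 6, 14 and 18 it was -0.33 for Plau at 3 h, and -0.56 for Plau and 0.21 for Plaur at 6 h. Median centring gave 0.24 for Plat and 0.19 for Timp1 at 144 h. The covariate gave 0.17 for Timp1 at 144 h and -0.32 for Plau at 3 h, and the 19 arrays without it gave -0.20 for Plau at 3 h. With animals left out in turn the ranges were -0.17 to 0.99 for Mmp3, -0.80 to 0.06 for Mmp9, -0.45 to 0.16 for Plat, -0.23 to 2.99 for Serpinb2 and -0.86 to 0.60 for Timp1 at 144 h, -1.14 to 0.31 for Plau at 24 h, and -0.62 to 1.17 for Plau and -1.26 to 0.21 for Plaur at 6 h. Of 570 single-gene values 524 kept direction and side of the threshold.

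No paired analysis was possible because animal numbers in the titles are unique and nothing pairs animals across groups. The promoter and protein description was not run.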
